A study of Mus musculus with 11 samples.

Results

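The 10 genes described here encode the transforming growth factor beta (TGF-beta) ligands Tgfb1, Tgfb2 and Tgfb3, the receptors Tgfbr1, Tgfbr2 and Tgfbr3, and 4 genes that TGF-beta signalling induces or that dampen it, Smad7, Skil, Pmepa1 and Snai2. They were taken by symbol from 32868 named genes, and each symbol had a single entry in the deposited table. Levels came from bulk RNA sequencing of sorted primary lung fibroblasts of neonatal mice. The mice either lacked peptidylarginine deiminase 2, an enzyme encoded by Padi2 that turns arginine in proteins into citrulline (PAD2KO), or were wild type (WT). In batch 2 there were 2 PAD2KO libraries (PAD2KO 6 and 7) and 3 WT libraries (WT 5, 6 and 7). Batch 1 had 3 PAD2KO libraries (PAD2KO 1, 2 and 3) and 3 WT libraries (WT 1, 3 and 4). The sources used here do not give the sort gate, the strain, the exact age, the deleted stretch of Padi2 or what a batch stands for. The study's title speaks of basal and TNF-induced expression, but no label of these libraries states a treatment, so TNF cannot be assigned to any group here. Whether replicates were separate mice or cultures is not labelled either, and p-values therefore reflect only how far the libraries spread, possibly for technical reasons. In bulk RNA, fewer cells of a type and less RNA per cell cannot be told apart.

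TGF-beta ligands are secreted in a latent complex and are released from it by integrins, thrombospondin and proteases. The active dimer is bound by the type II receptor TGFBR2, which phosphorylates the type I receptor TGFBR1, while the co-receptor TGFBR3 (betaglycan) presents ligand, TGF-beta 2 above all. TGFBR1 then phosphorylates SMAD2 and SMAD3, which enter the nucleus with SMAD4 and switch on matrix, contractile and feedback genes. In lung fibroblasts the pathway is best known for driving the change to contractile, collagen-making myofibroblasts.

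The bases ahead of the start are shown for 3 members that differed between batches. CAGAC, a short Smad-binding element, GTCTAGAC, its palindrome, GGCGCC, a GC-rich Smad element, and the E-box CACCTG, a motif of Snail-family factors, were searched on both strands. Capitals mark the matches, none of which overlapped another. Each run covers the 250 bases before a start listed in the RefSeq promoter table (GRCm38.p6), written along the strand of the gene. The windows of Tgfbr1 and Tgfbr2 adjoin the outer end of the annotated gene, while that of Tgfb2 lies inside its gene (chr1:186622787-186709697), so it precedes a start downstream of the outermost annotated base. Tgfb2 lies on the minus strand at chr1:186705990-186706239, Tgfbr1 (the first of its 2 listed starts) on the plus strand at chr4:47352972-47353221, and Tgfbr2 on the minus strand at chr9:116175364-116175613. Of the 10 members, 4 matched the promoter table, among them Tgfb1.
Tgfb2: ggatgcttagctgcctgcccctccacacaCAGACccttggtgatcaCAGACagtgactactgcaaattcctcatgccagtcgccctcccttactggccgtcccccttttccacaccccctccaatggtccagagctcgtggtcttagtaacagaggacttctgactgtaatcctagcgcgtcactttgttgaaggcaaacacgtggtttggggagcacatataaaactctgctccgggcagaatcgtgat
Tgfbr1: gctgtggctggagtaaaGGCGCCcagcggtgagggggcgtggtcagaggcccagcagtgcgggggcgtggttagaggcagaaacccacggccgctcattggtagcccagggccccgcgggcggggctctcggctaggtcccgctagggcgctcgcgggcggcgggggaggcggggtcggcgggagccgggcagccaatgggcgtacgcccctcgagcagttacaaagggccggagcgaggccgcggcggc
Tgfbr2: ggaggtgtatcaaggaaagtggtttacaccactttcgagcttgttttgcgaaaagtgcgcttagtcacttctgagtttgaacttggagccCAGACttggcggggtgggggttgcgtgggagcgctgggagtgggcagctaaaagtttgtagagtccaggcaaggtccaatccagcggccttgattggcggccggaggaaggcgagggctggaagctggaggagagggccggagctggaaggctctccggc
Tgfb2 held 2 matches to CAGAC, Tgfbr2 held 1, and the first start of Tgfbr1 held 1 match to GGCGCC. Of the windows not shown, the second start of Tgfbr1 held 1 match to CAGAC and Tgfb1 held 0 matches to any motif. Over 32851 promoters of the same length, 42.2% held CAGAC, 9.59% held GGCGCC, 17.2% held CACCTG and 0.167% held GTCTAGAC. A match describes the letters only.

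The libraries held 962633 to 1421243 counts of named genes, so that 0 counts in a library allow up to 2.11 to 3.12 counts per 1000000 (CPM), covering counting error only. The first principal component (45.3% of the variance) separated the batches, and on the second (12.1%) PAD2KO 7 at -33.4 and WT 7 at 35.02 stood farthest apart. Calls between genotypes of batch 2 that are lost without either library are given beside the result, by gene for the members and as counts for lists. All 8 fibroblast markers had counts, while the summed endothelial markers reached at most 14.9 CPM and the epithelial markers at most 41.7 CPM, with Sftpc and Nkx2-1 at 0. Summed immune markers were 232 CPM in WT 7 and 16.0 to 76.1 CPM in the other 10 libraries. Padi2 ranged from 0 to 3.17 CPM in PAD2KO and from 0 to 1.58 CPM in WT, too low to check the genotype labels.

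Between genotypes, 2 of the TGF-beta genes differed, in batch 2, whereas 7 differed between batches in at least 1 genotype. Calls are adjusted p-values under 0.05 in edgeR's quasi-likelihood test over all 10731 genes tested, and 9 of the 10 members could be tested. In batch 2, PAD2KO differed from WT in 2 members, Tgfbr3 lower and Snai2 higher, where 2.92% of all genes were called. In batch 1 none of the 9 was called, where 0.112% of all genes were. An unadjusted p under 0.05 was reached there by 1 member, Tgfb3, and by 5.34% of all genes, and DESeq2 called 0 members. Between batches, 4 members differed in PAD2KO (1 higher and 3 lower in batch 2), beside 17.4% of all genes. In WT 6 members differed (2 higher and 4 lower in batch 2), beside 21.6% of all genes. The median log2 difference of the 9 members was 0.25 for PAD2KO against WT in batch 2 and 0.05 in batch 1, and between batches -0.0011 in PAD2KO and 0.17 in WT, while the median over all genes lay within 0.02 of 0 in each comparison. The batch and genotype comparisons share libraries, so their values are set side by side and not as separate evidence.

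**Figure D1:**
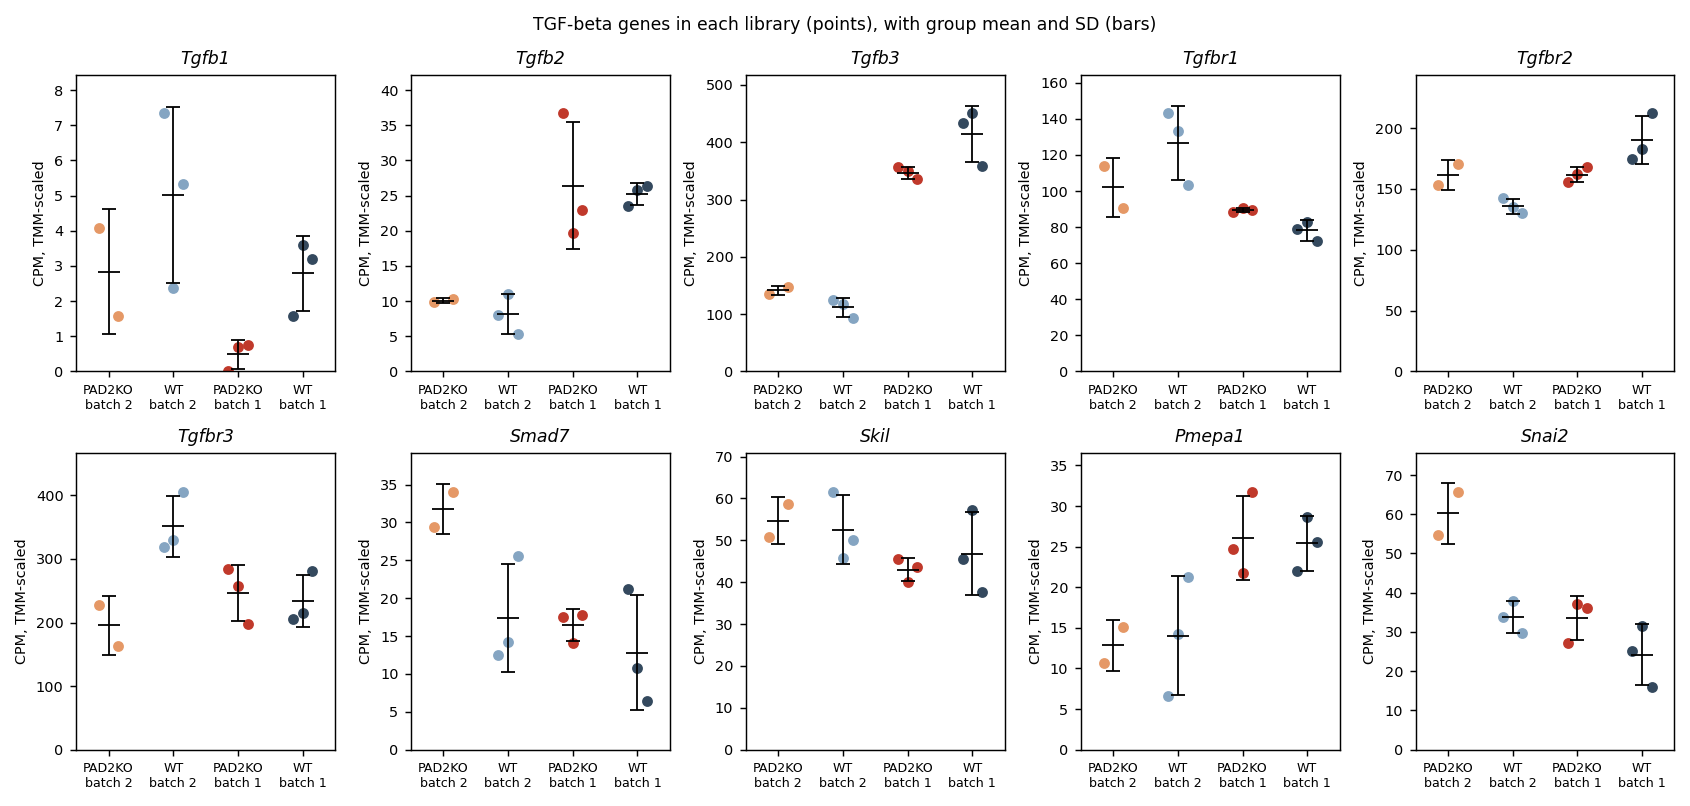
CPM (y axis, scaled by TMM, starting at 0) of the 10 TGF-beta genes in each library (points), with the group mean and SD as bars, for PAD2KO and WT of batch 2 and then of batch 1. Tgfb3 lies at 92.7 to 147 CPM in batch 2 and at 336 to 451 CPM in batch 1, and Tgfbr3 of batch 2 at 162 to 228 CPM in PAD2KO and 319 to 406 CPM in WT.

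Among the ligands, the message of Tgfb3 fell in batch 2 in both genotypes. Tgfb3, which encodes the TGF-beta 3 isoform, had 136 and 147 CPM in PAD2KO 6 and 7 and 125, 118 and 92.7 CPM in WT 5, 6 and 7. In batch 1 it had 356, 349 and 336 CPM in PAD2KO 1, 2 and 3 and 433, 451 and 358 CPM in WT 1, 3 and 4. All 5 libraries of batch 2 lay below all 6 of batch 1. The log2 difference of batch 2 from batch 1 was -1.296 in PAD2KO (SE 0.138, adjusted p = 1.14e-07 in edgeR) and -1.87 in WT (SE 0.123, adjusted p = 5.63e-12). Both calls held in each of the 11 fits that left out 1 library. Between genotypes, PAD2KO lay above WT in batch 2 (log2 difference 0.32, SE 0.144, adjusted p = 0.299) and below WT in batch 1 (-0.26, SE 0.112, adjusted p = 0.857), and neither passed. The groups did not overlap in either batch. Groups of 2 or 3 libraries can separate without a difference, here and for the genes below. How many of all genes did so was not counted.

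Tgfb2, the isoform that depends most on betaglycan, showed the same order at lower counts. It had 9.82 and 10.3 CPM in PAD2KO 6 and 7 and 8.07, 11.1 and 5.33 CPM in WT 5, 6 and 7. In batch 1 there were 36.7, 19.6 and 22.9 CPM in PAD2KO 1, 2 and 3 and 23.5, 25.8 and 26.4 CPM in WT 1, 3 and 4. Again every library of batch 2 was below every library of batch 1, while the genotypes overlapped within each batch. The log2 difference of batch 2 from batch 1 was -1.37 in PAD2KO (SE 0.343, adjusted p = 0.00557 in edgeR) and -1.58 in WT (SE 0.316, adjusted p = 0.000431). The call in WT held in all 11 fits that left out a library. The call in PAD2KO was lost without PAD2KO 6 (adjusted p = 0.0553) and when the deposited gene lengths entered the fit (adjusted p = 0.0739). PAD2KO and WT differed by a log2 of 0.26 in batch 2 (SE 0.411, adjusted p = 0.854) and 0.05 in batch 1 (SE 0.257, adjusted p = 0.998).

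Tgfb1, the isoform most often studied in lung fibrosis, was barely counted. It had 5 and 2 counts in PAD2KO 6 and 7 and 10, 3 and 5 counts in WT 5, 6 and 7. Batch 1 gave 0, 1 and 1 counts in PAD2KO 1, 2 and 3 and 2, 5 and 4 counts in WT 1, 3 and 4. With 38 counts over all 11 libraries it did not pass the count filter, so it was neither tested nor given a fold. Its deposited effective length varied 8.65-fold between libraries, which bears on its TPM as well.

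The fall of both ligands went along with a lower sum of fibroblast markers, though not every marker was lower. The summed CPM of the 8 markers was 4465 to 4590 in PAD2KO and 5050 to 5528 in WT of batch 2, against 10475 to 12351 in PAD2KO and 11189 to 14883 in WT of batch 1. Collagen genes make up most of that sum. Col1a1, Col1a2, Col3a1, Pdgfrb and Dcn averaged lower in batch 2 in both genotypes, and Lum only in PAD2KO. The fall of Dcn in WT was small (567 against 626 CPM). Thy1 averaged 126 CPM in PAD2KO and 70.4 CPM in WT of batch 2, against 68.4 CPM in PAD2KO and 63.6 CPM in WT of batch 1. Pdgfra, a fibroblast receptor in the same list, averaged 623 ± 30.5 CPM in PAD2KO (SD, n = 2) and 691 ± 26.3 CPM in WT (SD, n = 3) of batch 2, against 604 ± 71.2 CPM in PAD2KO and 602 ± 62.6 CPM in WT of batch 1 (SD, n = 3 each). Summed mesothelial markers were 49.9 to 90.8 CPM in PAD2KO and 52.2 to 90.3 CPM in WT of batch 2, against 90.5 to 254 CPM in PAD2KO and 199 to 347 CPM in WT of batch 1. The part of either marker list in the ligand difference was not tested.

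Of the receptors, Tgfbr3 was lower in PAD2KO than in WT of batch 2. In batch 2, Tgfbr3 had 228 and 162 CPM in PAD2KO 6 and 7 and 319, 329 and 406 CPM in WT 5, 6 and 7. Its values in batch 1 were 285, 257 and 198 CPM in PAD2KO 1, 2 and 3 and 206, 216 and 281 CPM in WT 1, 3 and 4. The genotypes stood apart in batch 2, with all WT libraries higher, and overlapped in batch 1. The log2 difference of PAD2KO from WT was -0.84 in batch 2 (SE 0.183, adjusted p = 0.0171 in edgeR) and 0.08 in batch 1 (SE 0.160, adjusted p = 0.994). The deposited effective length of Tgfbr3 was 5176 to 5778 bases in PAD2KO of batch 1 and 4084 to 4665 bases in the other groups. The call in batch 2 was lost without PAD2KO 7 (-0.61, adjusted p = 0.284), without WT 7 (-0.73, adjusted p = 0.0549) and with gene lengths in the fit (-0.84, adjusted p = 0.120). It held in the other 9 fits that left out a library and in DESeq2 (adjusted p = 0.00115). WT 7, the library with the most Tgfbr3, also had the highest summed immune markers (232 CPM, against 41.1 and 68.7 CPM in WT 5 and 6), whose part in the difference was not tested. In WT, Tgfbr3 rose in batch 2 over batch 1 by a log2 of 0.58 (SE 0.159, adjusted p = 0.0133). That call was lost without WT 1 (adjusted p = 0.0642), WT 3 (0.0559) or WT 7 (0.0533) and with gene lengths (0.104). In PAD2KO the corresponding value was -0.34 (SE 0.183, adjusted p = 0.238).

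Both signalling receptors differed between batches in WT, in opposite directions. Tgfbr1 had 114 and 90.4 CPM in PAD2KO 6 and 7 and 143, 133 and 103 CPM in WT 5, 6 and 7. Batch 1 gave 88.6, 90.5 and 89.4 CPM in PAD2KO 1, 2 and 3 and 79.2, 83.1 and 72.1 CPM in WT 1, 3 and 4. All WT libraries of batch 2 lay above all WT libraries of batch 1, while the PAD2KO libraries of the batches overlapped. Between genotypes the libraries overlapped in batch 2, and in batch 1 PAD2KO lay above WT with no overlap. In batch 2 over batch 1, Tgfbr1 rose in WT by a log2 of 0.71 (SE 0.138, adjusted p = 0.000329 in edgeR), and the value in PAD2KO was 0.19 (SE 0.154, adjusted p = 0.458). PAD2KO differed from WT by -0.33 in batch 2 (SE 0.151, adjusted p = 0.328) and by 0.19 in batch 1 (SE 0.141, adjusted p = 0.948).

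Tgfbr2 had 153 and 170.4 CPM in PAD2KO 6 and 7 and 142, 135 and 130.01 CPM in WT 5, 6 and 7. Batch 1 libraries had 156, 162 and 168 CPM in PAD2KO 1, 2 and 3 and 175, 183 and 212 CPM in WT 1, 3 and 4. PAD2KO lay above WT in batch 2 and below WT in batch 1, with no overlap in either, yet neither difference passed (log2 0.25, SE 0.131, adjusted p = 0.415 and log2 -0.23, SE 0.113, adjusted p = 0.922). In batch 2 against batch 1, Tgfbr2 fell in WT (log2 -0.48, SE 0.116, adjusted p = 0.00295 in edgeR), while the value in PAD2KO was -0.0011 (SE 0.128, adjusted p = 0.997). The calls of Tgfbr1 and Tgfbr2 in WT held in all 11 fits that left out a library, in DESeq2 and with gene lengths in the fit.

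Among the feedback and response genes, Snai2 was higher in PAD2KO than in WT of batch 2. Snai2 encodes SLUG, a repressor of epithelial genes that TGF-beta induces in many cells. It had 54.8 and 65.8 CPM in PAD2KO 6 and 7 and 33.8, 37.9 and 29.8 CPM in WT 5, 6 and 7. Its batch 1 values were 27.1, 37.2 and 36.2 CPM in PAD2KO 1, 2 and 3 and 25.1, 31.5 and 16.0 CPM in WT 1, 3 and 4. Both PAD2KO libraries of batch 2 lay above each of the other 9 libraries. PAD2KO exceeded WT by a log2 of 0.82 in batch 2 (SE 0.229, adjusted p = 0.0462 in edgeR) and 0.46 in batch 1 (SE 0.230, adjusted p = 0.922). The call in batch 2 held in 5 of the 11 fits that left out a library. It was lost without PAD2KO 3 (adjusted p = 0.0623), PAD2KO 6 (0.0600), PAD2KO 7 (0.495), WT 5 (0.108), WT 6 (0.0683) or WT 7 (0.132), in DESeq2 (0.143), with a replicate block (0.0950) and with gene lengths (0.251). Within PAD2KO, Snai2 rose in batch 2 over batch 1 by a log2 of 0.84 (SE 0.226, adjusted p = 0.00967), a call lost without PAD2KO 7 (adjusted p = 0.140) and with gene lengths (0.0871). In WT that value was 0.48 (SE 0.234, adjusted p = 0.153).

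Pmepa1, a membrane protein that is induced by TGF-beta and holds back SMAD activation, was lower in batch 2. It had 10.6 and 15.1 CPM in PAD2KO 6 and 7 and 6.61, 14.2 and 21.3 CPM in WT 5, 6 and 7. In batch 1 it had 24.7, 21.7 and 31.8 CPM in PAD2KO 1, 2 and 3 and 22.0, 28.7 and 25.6 CPM in WT 1, 3 and 4. All 5 libraries of batch 2 lay below all 6 of batch 1, by a narrow margin for WT 7. The log2 difference of batch 2 from batch 1 was -1.01 in PAD2KO (SE 0.348, adjusted p = 0.0439 in edgeR) and -0.92 in WT (SE 0.309, adjusted p = 0.0323). In PAD2KO the call held in 4 of the 11 fits that left out a library, and was lost without PAD2KO 1, 3, 6 or 7 or WT 3, 4 or 6, with adjusted p-values of up to 0.296. In WT it held in 7 of the 11, and was lost without WT 3, 4, 5 or 6, with adjusted p-values of up to 0.233. DESeq2 called Pmepa1 in neither genotype (adjusted p = 0.123 in PAD2KO and 0.0959 in WT), nor did the fit with gene lengths (0.483 in PAD2KO and 0.340 in WT). The genotypes overlapped in both batches.

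Smad7 encodes the inhibitory SMAD that removes activated TGFBR1, and it had 29.4 and 34.1 CPM in PAD2KO 6 and 7 and 12.5, 14.2 and 25.6 CPM in WT 5, 6 and 7. In batch 1 it had 17.6, 14.0 and 17.7 CPM in PAD2KO 1, 2 and 3 and 21.2, 10.7 and 6.41 CPM in WT 1, 3 and 4. The PAD2KO libraries of batch 2 were the highest of all 11, yet no difference passed. PAD2KO differed from WT by a log2 of 0.91 in batch 2 (SE 0.343, adjusted p = 0.181 in edgeR) and 0.36 in batch 1 (SE 0.347, adjusted p = 0.965). Batch 2 differed from batch 1 by 0.95 in PAD2KO (SE 0.337, adjusted p = 0.0518) and by 0.40 in WT (SE 0.354, adjusted p = 0.482). The value in PAD2KO passed without WT 1 (adjusted p = 0.0282), WT 4 (0.0343) or WT 7 (0.0317). It also passed with RLE size factors (0.0489), with no count filter (0.0194), without Rn18s and mitochondrial genes (0.0495) and with the PAD2KO groups fitted alone (0.0201). In DESeq2 it did not (0.144), and with gene lengths the log2 value was 0.28 (adjusted p = 0.833). The deposited effective length of Smad7 varied 3.17-fold between libraries.

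Skil, which encodes the SMAD corepressor SNON, stayed within a narrow range. It had 50.7 and 58.6 CPM in PAD2KO 6 and 7 and 61.7, 45.8 and 50.1 CPM in WT 5, 6 and 7. In batch 1 it had 45.5, 40.0 and 43.6 CPM in PAD2KO 1, 2 and 3 and 45.5, 57.3 and 37.6 CPM in WT 1, 3 and 4. The genotypes overlapped in both batches, and no difference passed in edgeR (log2 0.05 and -0.13 between genotypes in batch 2 and batch 1, and 0.35 and 0.17 between batches in PAD2KO and WT, adjusted p of 0.274 to 0.983).

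**Figure D2:**
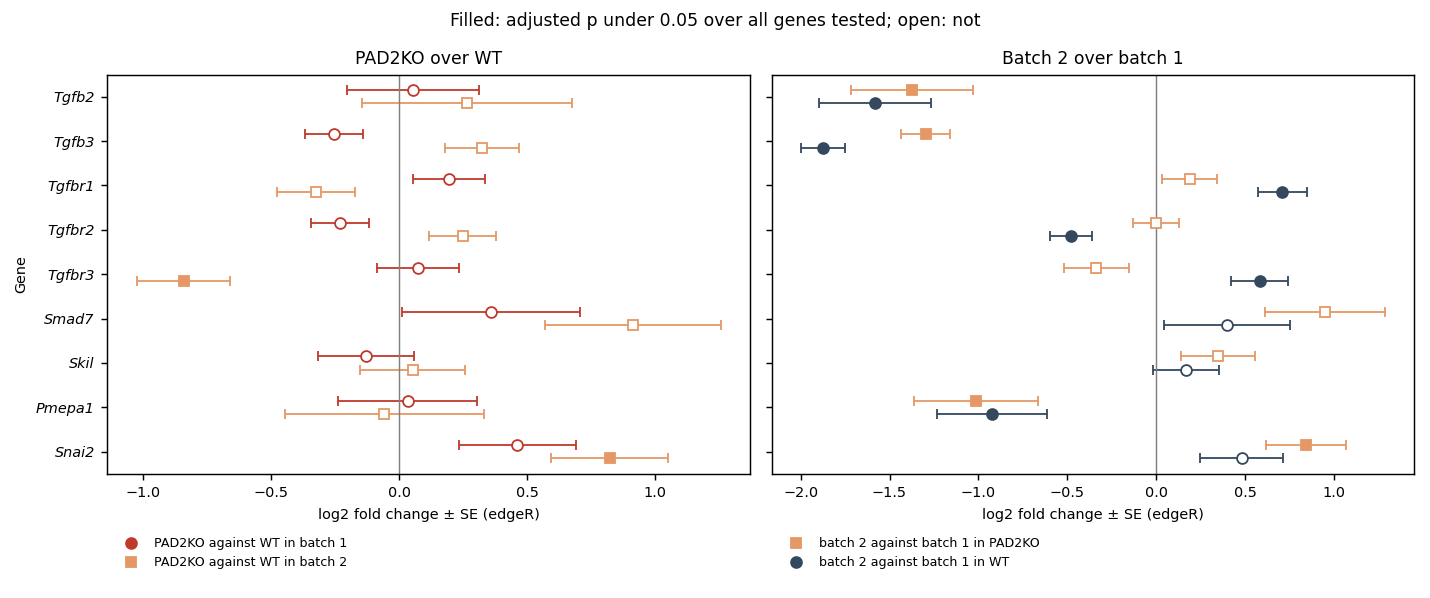
Log2 fold change with its SE (x axis, edgeR) of the 9 tested members (rows), with PAD2KO over WT in batch 1 and batch 2 on the left and batch 2 over batch 1 in PAD2KO and WT on the right. Filled symbols passed an adjusted p of 0.05: Tgfbr3 at -0.84 and Snai2 at 0.82 on the left, and on the right Tgfb2, Tgfb3 and Pmepa1 in both genotypes, Snai2 in PAD2KO, and the 3 receptors in WT.

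Whether the genotype difference itself differed between batches was tested by the interaction of genotype and batch. None of the 9 members passed, beside 1.44% of all genes, although 4 of them and 11.2% of all genes had an unadjusted p under 0.05. Tgfbr3 came nearest, with a log2 difference between batches of -0.92 (SE 0.243, adjusted p = 0.0769 in edgeR). DESeq2 called it (adjusted p = 0.0226), as did the fits without PAD2KO 3 (0.0217), WT 4 (0.0174) or PAD2KO 6 (0.0109), while gene lengths gave -0.57 (adjusted p = 0.589). Tgfb3 followed at 0.58 (SE 0.183, adjusted p = 0.131), Tgfbr2 at 0.48 (SE 0.173, adjusted p = 0.221) and Tgfbr1 at -0.52 (SE 0.207, adjusted p = 0.286). For these 3 genes the difference of PAD2KO from WT had one sign in batch 2 and the other in batch 1. The same held for Tgfbr3 (-0.84 and 0.08), Pmepa1 (-0.06 and 0.03) and Skil (0.05 and -0.13). The values of Pmepa1 (SE 0.389 and 0.272), Skil (SE 0.205 and 0.188) and Tgfbr3 in batch 1 (SE 0.160) were smaller than their SE. Their signs are therefore not settled. Tgfb2, Smad7 and Snai2 were positive in both batches. With batch as a covariate over all 11 libraries, none of the 9 members differed between genotypes, beside 0.158% of all genes. An unadjusted p under 0.05 was reached by 2 members, Snai2 (log2 0.64, SE 0.166, adjusted p = 0.181) and Smad7 (log2 0.64, SE 0.251, adjusted p = 0.534), and by 7.60% of all genes, and DESeq2 called 0 members.

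Levels of different genes were compared as deposited TPM, which is scaled to transcript length. Tgfb3 was the most abundant member in PAD2KO of batch 2 (51.8 ± 2.69 TPM, SD, n = 2), where its libraries overlapped those of Tgfbr3 (50.5 ± 9.10 TPM). In WT of batch 2 Tgfbr3 came first at 90.1 ± 14.5 TPM and Tgfb3 second at 40.7 ± 6.09 TPM (SD, n = 3), with no overlap. In batch 1 Tgfb3 led in PAD2KO at 135 ± 3.31 TPM and in WT at 162 ± 16.05 TPM (SD, n = 3 each), clear of Tgfbr3 at 55.3 ± 10.99 TPM in PAD2KO and 67.8 ± 17.2 TPM in WT. By group mean Tgfbr2 ranked next after these in every group, at 34.2 to 53.5 TPM, but its libraries overlapped those of a neighbour in rank each time. Tgfbr1 and Snai2 followed, at 18.6 to 28.5 TPM for Tgfbr1 and 16.8 to 39.1 TPM for Snai2, and overlapped each other in 3 of the 4 groups. Smad7, Skil, Pmepa1 and Tgfb2 had group means of 2.16 to 12.7 TPM and mostly overlapped their neighbours. Tgfb1 was lowest in all groups but WT of batch 2, at 1.29 to 3.76 TPM. The TPM of Tgfb1, Smad7, Tgfb2 and Pmepa1 carries the variation of their effective lengths (8.65-, 3.17-, 2.37- and 2.22-fold between libraries).

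**Figure D3:**
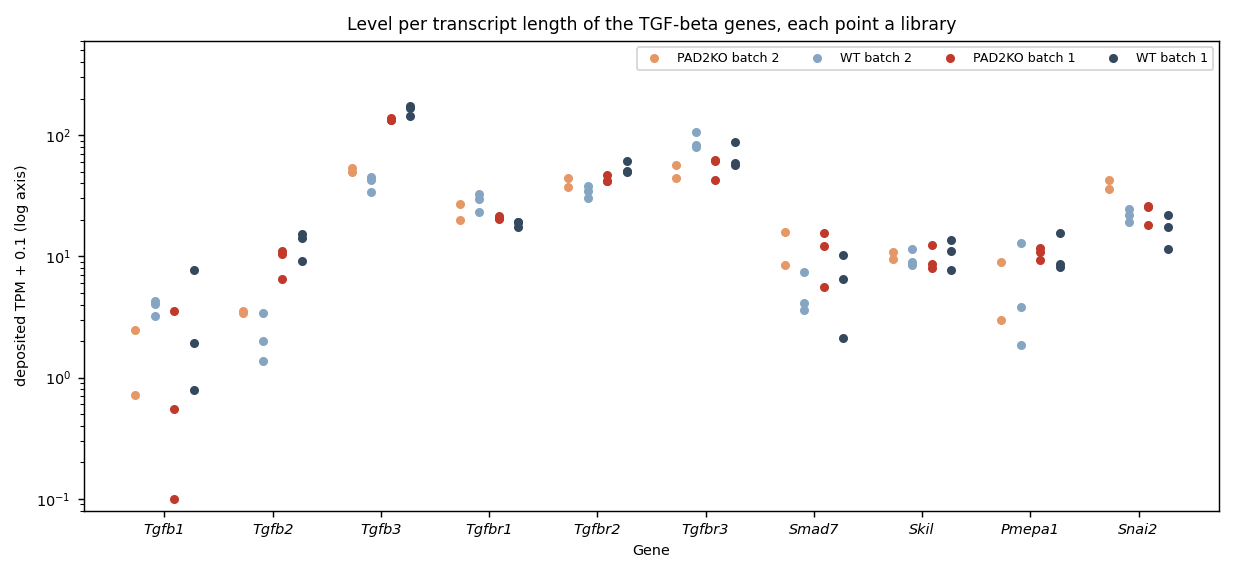
Deposited TPM plus 0.1 (log axis) of the 10 genes, each point a library, coloured by group from PAD2KO of batch 2 to WT of batch 1. Tgfb3 spans 33.8 to 175 TPM and Tgfb1 0 to 7.56 TPM over the 11 libraries.

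For each member called in one of the 4 pairwise comparisons, up to 3 genes with the most similar profile are named from 10682 other genes. The measure was the root mean square difference of log2 CPM over the 11 libraries after removing each gene's mean. Tgfb3 was nearest to Svep1 (0.142), Rasl11a (0.177) and Col5a2 (0.185), where the median over all genes was 0.869. Among the genes near Tgfb2 were Dipk2a (0.207) and Shroom3 (0.243). Tgfbr3 was nearest to Srebf2 (0.136), Abca1 (0.154) and Npc2 (0.160), with a median of 0.477. Tgfbr1 was nearest to Acsl5 (0.107), Hif1a and Surf4, and Tgfbr2 to Trpc4ap (0.0931), Rbbp7 and Vps26b. Pmepa1 was nearest to Lrch1 (0.256), Phactr1 and Efnb1, and Snai2 to Eea1 (0.235), Prkx and Rasgrp3. The measure is smaller for genes that vary little, so it does not rank matches between members. The root mean square of the member itself was 0.827 for Tgfb3, 0.363 for Tgfbr3, 0.291 for Tgfbr1 and 0.192 for Tgfbr2. The nearest profiles are descriptions over libraries that share the same batches.

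The rest of the pathway was read from 8 lists of 114 other genes, 102 of them tested. The list of inhibitors also holds other regulators, not all of which dampen the signal. The list of Smads includes partners such as Crebbp and Trim33, and that of receptors includes co-receptors. The lists of targets were not split by whether TGF-beta raises or lowers a gene. Their counts of higher and lower genes and their medians therefore do not read as more or less signalling. Of these 102, 15 were higher and 5 lower in PAD2KO than in WT of batch 2 (median log2 difference 0.16), beside 2.92% of all genes called. Those counts were 6 and 1 without PAD2KO 7 and 10 and 3 without WT 7. In batch 1, 0 of the 102 were called by edgeR (median -0.08), beside 0.112% of all genes. None was called in any fit that left out 1 library, and DESeq2 called 0. Beside 5.34% of all genes, 11 of the 102 had an unadjusted p under 0.05. Of those, 6 were matrix genes, and Lox (log2 -0.42, adjusted p = 0.113) and Cdh11 (-0.50, adjusted p = 0.137) came nearest. The nearest were Bhlhe40 (0.67) and Nuak1 (0.79) among early targets, and Itgb1 (-0.25) and Ltbp4 (-0.58) among genes of latency and activation. Among contractile genes they were Cnn1 (-0.28) and Itga5 (-0.26). The adjusted p-values of all these in edgeR were 0.419 to 0.922. Receptors and co-receptors (Bambi -0.44, Bmpr2 -0.26) and Smads and their partners (Trim33 -0.38, Smad3 0.12) had adjusted p-values of 0.923 and above. So did inhibitors and other regulators (Rnf111 -0.41, Usp4 -0.16) and EMT factors (Twist2 -0.30, Zeb1 -0.15). Batch 2 against batch 1 called 21 higher and 15 lower in PAD2KO (median -0.08) and 16 higher and 35 lower in WT (median -0.25). Of all genes, 17.4% were called between batches in PAD2KO and 21.6% in WT.

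Of the contractile targets, 7 of 10 genes were called in batch 2, beside 2.92% of all genes. All 7 were higher in PAD2KO (median log2 of the list 0.80). The count was 3 without PAD2KO 7 and 5 without WT 7. Acta2, smooth muscle actin and the usual myofibroblast marker, averaged 3490 ± 648 CPM in PAD2KO (SD, n = 2) and 1239 ± 115 CPM in WT (SD, n = 3) of batch 2, a log2 difference of 1.49 (SE 0.155, adjusted p = 3.26e-05 in edgeR). In batch 1 it averaged 4736 ± 1081 CPM in PAD2KO and 5161 ± 210 CPM in WT (SD, n = 3 each). Cnn1, calponin, averaged 341 ± 28.3 CPM in PAD2KO and 142 ± 13.4 CPM in WT of batch 2 (log2 1.26, adjusted p = 4.34e-06), and Myl9, a myosin light chain, differed by 0.90 (adjusted p = 7.32e-05) and Tpm2, a tropomyosin, by 0.69 (adjusted p = 0.00119). In batch 2 against batch 1, 7 of these 10 genes fell in WT (median -1.17), beside 21.6% of all genes called. Among the 7 were Acta2 (log2 -2.06) and Cnn1 (-1.87). In PAD2KO 2 of the 10 rose, Itga5 by 0.85 and Vim by 0.50 (median -0.20), and 0 fell, beside 17.4% of all genes called. Without PAD2KO 1 there were 2 that fell, without PAD2KO 3 there was 1, and without PAD2KO 7 there was 1 in each direction. The summed smooth muscle markers, which include Acta2 and Cnn1, were 4436 to 5721 CPM in PAD2KO and 1593 to 2084 CPM in WT of batch 2, against 5407 to 8480 CPM in PAD2KO and 7212 to 7853 CPM in WT of batch 1. The part of smooth muscle cells in these values was not tested.

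Many fibrotic and matrix targets fell in batch 2 in both genotypes. Of 20 tested, 9 were lower and 2 higher in PAD2KO, beside 17.4% of all genes called. In WT 14 were lower and 1 higher, beside 21.6% of all genes. The 2 higher in PAD2KO became 1 without PAD2KO 1, 3 or 7 or WT 1, 3, 4, 5 or 6. Col3a1, a fibrillar collagen, averaged 1010 ± 46.3 CPM in PAD2KO and 1474 ± 95.4 CPM in WT of batch 2, against 5619 ± 638 CPM in PAD2KO and 6706 ± 978 CPM in WT of batch 1 (SD, n = 2, 3, 3 and 3). Its log2 difference of batch 2 from batch 1 was -2.48 in PAD2KO (adjusted p = 2.58e-13 in edgeR) and -2.19 in WT (adjusted p = 3.02e-14). Lox, which crosslinks collagen, fell likewise (log2 -1.90 in PAD2KO and -2.065 in WT), and Timp1, an inhibitor of matrix proteases, rose by 0.56 in PAD2KO and by more in WT, to 587 ± 44.6 CPM in batch 2 against 238 ± 4.21 CPM in batch 1 (SD, n = 3 each). Between genotypes of batch 2, where 2.92% of all genes were called, Col4a1 rose in PAD2KO (log2 0.94), as did Col5a1 and Loxl2. Timp1 (-0.54), Dcn (-1.56), Col3a1 (-0.55) and Tgfbi fell. Without PAD2KO 7, 0 of the 3 rises and 1 of the 4 falls were called, without WT 7 the counts were 2 and 2, and without WT 3 or WT 6 they were 1 and 4.

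Early targets gave 7 higher and 2 lower of 19 in batch 2 against batch 1 in PAD2KO, beside 17.4% of all genes called. In WT 6 were higher and 4 lower, beside 21.6% of all genes. Il11, a fibroblast cytokine that TGF-beta induces, averaged 179 ± 29.6 CPM in PAD2KO (SD, n = 2) and 176 ± 72.5 CPM in WT (SD, n = 3) of batch 2, against 4.74 ± 2.22 CPM in PAD2KO and 3.59 ± 0.979 CPM in WT of batch 1 (SD, n = 3 each). Its log2 difference of batch 2 from batch 1 was 5.21 in PAD2KO (adjusted p = 1.27e-05 in edgeR) and 5.60 in WT (adjusted p = 3.64e-06). Hbegf, a ligand of the EGF receptor, rose by 2.53 in PAD2KO and 1.77 in WT, and Hmga2, a chromatin protein, by 1.95 in PAD2KO and 1.48 in WT. The early targets lower in PAD2KO numbered 0 without PAD2KO 7 and 1 without PAD2KO 1, 2 or 3 or WT 3 or 5, and the higher ones 4 without PAD2KO 3. Between genotypes of batch 2, 2 early targets were higher and 1 lower in PAD2KO, beside 2.92% of all genes called. Ccn2, a classic TGF-beta target, rose (log2 1.17, adjusted p = 0.0248 in edgeR) and Tsc22d1 fell (-0.66, adjusted p = 0.00426). DESeq2 called 0 higher and 1 lower. None of the 3 was called without PAD2KO 7, 1 (lower) was without WT 7, and 1 in each direction was without WT 3, WT 5 or WT 6.

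Genes of latency and activation differed between genotypes of batch 2 in 3 of 14 cases, beside 2.92% of all genes. Thbs1, thrombospondin 1, a latent TGF-beta activator, averaged 4802 ± 202 CPM in PAD2KO (SD, n = 2) and 2756 ± 333 CPM in WT (SD, n = 3) of batch 2, a log2 difference of 0.80 (adjusted p = 0.000189 in edgeR). Itgb1, the beta 1 integrin chain, rose by 0.77 (adjusted p = 0.000189 in edgeR). Ltbp2, a matrix protein named for its family of latent TGF-beta binding proteins, rose by 0.65 (adjusted p = 0.00660). In batch 2 against batch 1, Itgb3, a chain of an integrin that binds latent TGF-beta, rose by 1.89 in PAD2KO and 1.70 in WT, and Fbn1, the fibrillin that anchors the latent complex, fell (log2 -0.84 in PAD2KO and -0.99 in WT). In all, 4 of the 14 were higher and 1 lower in PAD2KO, beside 17.4% of all genes called. In WT 3 were higher and 4 lower, beside 21.6% of all genes. Without PAD2KO 7, 2 were higher between batches in PAD2KO, and without WT 6 or WT 7, 2 were lower there. Between genotypes of batch 2, 1 was lower without WT 6.

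Below, receptors, Smads and inhibitors name whole lists, with co-receptors, partners and other regulators included. The other receptors, the Smads, the inhibitors and the EMT transcription factors had 10, 10, 16 and 4 genes tested. Between genotypes in batch 2, edgeR called 0 of them, beside 2.92% of all genes. DESeq2 called 0 of them as well. An unadjusted p under 0.05 in edgeR was reached by 2 receptors, 0 Smads, 2 inhibitors and 0 EMT factors, and by 14.0% of all genes. By unadjusted p, those nearest were Vasn (log2 -0.57, adjusted p = 0.111 in edgeR) and Acvrl1 (0.56, adjusted p = 0.114) among receptors, Smad2 (0.37, adjusted p = 0.474) and Smad4 (-0.47, adjusted p = 0.555) among Smads, Wwp1 (0.82, adjusted p = 0.0520) and Nedd4l (0.45, adjusted p = 0.336) among inhibitors, and Twist2 (-0.62, adjusted p = 0.384) and Zeb1 (-0.52, adjusted p = 0.556) among EMT factors. Wwp1, a ubiquitin ligase that acts on TGFBR1 with SMAD7, was called without PAD2KO 1, WT 1, WT 3 or WT 4. In batch 2 against batch 1, Acvrl1, a type I receptor for BMP9 and BMP10, rose by 1.39 in PAD2KO and 0.73 in WT. Smad3, which carries the TGF-beta signal, rose by 0.74 in PAD2KO (adjusted p = 0.000167) and 0.67 in WT (adjusted p = 0.000138), and Twist2 by 2.46 in PAD2KO and 2.79 in WT. Wwp1 rose by 1.55 in PAD2KO and 0.72 in WT, and Tgif1, a SMAD corepressor, by 0.77 in PAD2KO and 0.53 in WT. Other genes were called lower. Bmpr1a averaged 47.9 CPM in WT of batch 2 against 73.6 CPM in WT of batch 1. Ski, in the list of inhibitors, averaged 59.6 CPM in WT of batch 2 against 88.9 CPM in WT of batch 1. Zeb2, an EMT factor, was called lower in both genotypes. Counting these genes, batch 2 against batch 1 in WT, where 21.6% of all genes were called, gave 2 receptors higher and 1 lower. In the Smad list 1 gene, Smad3, was higher and 2 were lower, Smad1 and the partner Crebbp. There were 2 inhibitors higher and 2 lower, and 1 EMT factor higher and 1 lower. Of the receptors in WT, 1 was higher without WT 1, 3 or 7, and 2 were lower without WT 3, 5 or 7. The lower genes of the Smad list in WT numbered 0 without WT 1, 5 or 6 and 1 without WT 4, WT 7 or PAD2KO 6. Inhibitors higher and lower in WT numbered 0 and 0 without WT 1, 1 and 2 without WT 3, 1 and 1 without WT 4 or WT 7, 1 and 0 without WT 5, and 0 and 1 without WT 6. In PAD2KO, where 17.4% of all genes were called, 1 receptor was higher. In the Smad list of PAD2KO, Smad3 was higher and the partner Crebbp lower. There were 3 inhibitors higher and 1 lower, and 1 EMT factor higher and 1 lower. In PAD2KO, 0 genes of the Smad list were lower without PAD2KO 3, 6 or 7 and 0 EMT factors were lower without PAD2KO 3 or 6. Inhibitors higher and lower in PAD2KO numbered 2 and 2 without PAD2KO 2 and 2 and 0 without PAD2KO 7.

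**Figure D4:**
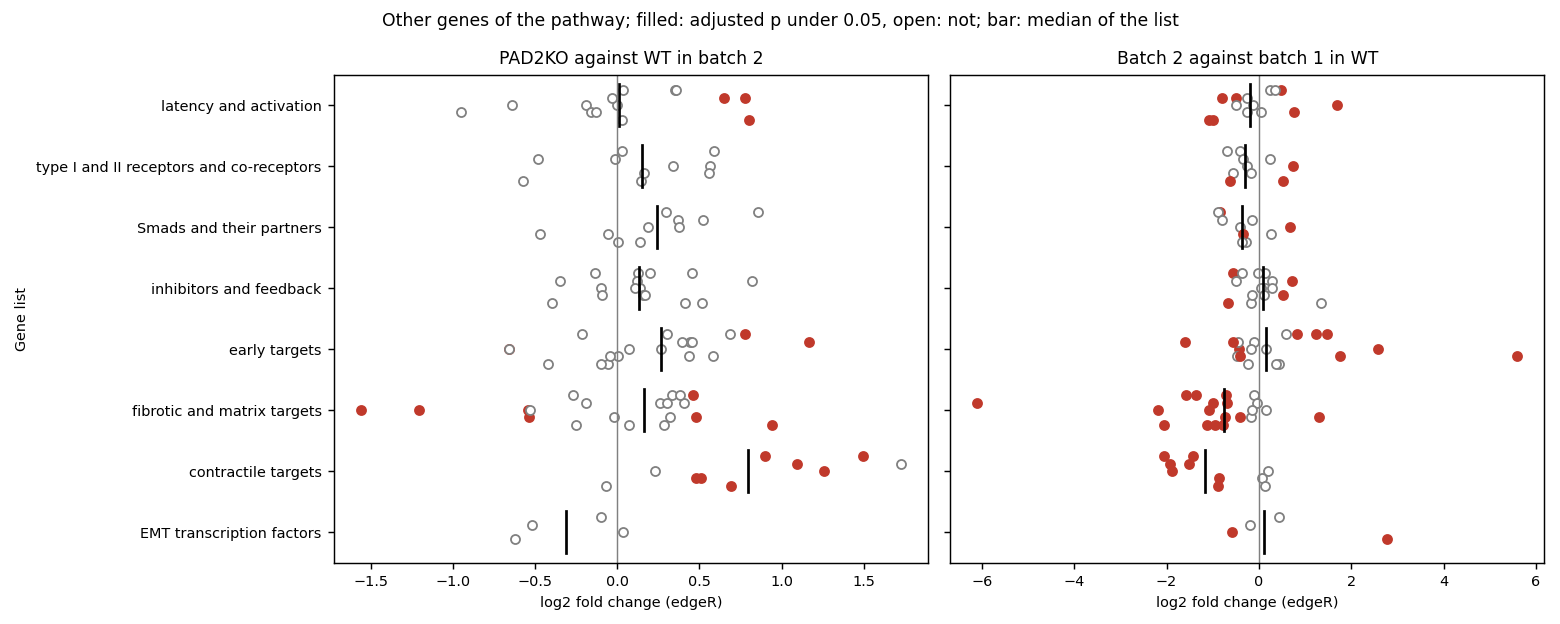
Log2 fold change (x axis, edgeR) of each tested gene of the 8 pathway lists (rows), for PAD2KO against WT in batch 2 on the left and batch 2 against batch 1 in WT on the right. Filled points passed an adjusted p of 0.05 and bars mark list medians, which for contractile targets lie at 0.80 on the left and -1.17 on the right.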

How the data were processed

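The authors deposited 1 table with estimated counts, TPM and effective gene lengths for 11 libraries, and the totals of the estimated counts differ between libraries. Salmon 1.3.2, fastp, DESeq2 1.46.0 and the build GRCm39 appear, without roles, in the submitters' processing notes. TPM, deposited by the authors and scaled to length and total, served only for levels between genes. Per the labels' protocols the libraries followed a SmartSeq2 workflow, which has no molecular identifiers, so copies count as reads.

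Of 56065 entries, 23133 without a symbol (3.80% to 6.40% of counts) were left out. The rest were summed to 32868 symbols and rounded. Rn18s took 8.52% to 12.1% of counts. CPM used TMM-scaled totals. Tests used edgeR 4.0.16 in R 4.3.3 (filterByExpr, robust quasi-likelihood fit of the 4 groups of genotype and batch, Benjamini-Hochberg, threshold 0.05), which kept 10731 genes with a common biological coefficient of variation of 0.12. An additive fit of genotype and batch gave the difference over both batches. The fits were tested on simulated data. Alternatives were other size factors, other count filters, gene lengths as offsets, no Rn18s or mitochondrial genes, a replicate block, the groups alone, DESeq2 1.42.0 and each library left out. Figures and summaries used Python 3.11.15 and pandas 2.3.3.

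The members, the pathway lists, the tests and the naming rule were chosen with earlier results of these data known. The rule names all members, up to 4 called genes of each list by smallest p (the 2 with the smallest p where fewer than 2 were called), and the 3 nearest profiles among genes whose log2 CPM averaged at least 2. Genes named beyond it (Pdgfra, Itga5, Vim, Col5a1, Loxl2, Tgfbi) complete counts or were picked after their values were seen. Of list genes in the interaction, those called are named. Ligand proteins and the promoters of 6 members were not used here. Some genes that the rule would name are not reported here.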

Additional observations from a re-analysis of the deposited data

Results flagged for a closer look

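None of the members was called for a genotype difference that itself differed between batches, by the interaction of genotype and batch in edgeR. Of the 102 other pathway genes tested 12 were called, beside 1.44% of all 10731 genes. The difference of PAD2KO from WT was more positive in batch 2 than in batch 1 by a log2 of 1.617 for Acta2, 1.537 for Cnn1, 1.103 for Myl9, 0.7355 for Tpm2, 0.6115 for Tpm1 and 0.7736 for Itga5 among contractile targets. The same held for Itgb1 (1.021) and Thbs1 (1.02) among genes of latency and activation and for Col4a1 (0.9671), Col5a1 (0.7472) and Loxl2 (0.6314) among matrix genes. For Timp1 it was more negative in batch 2, by 0.741 (log2 value -0.741). Of the 102 list genes tested, 5 were more positive and 0 more negative when PAD2KO 7 was left out, 5 and 1 without PAD2KO 3, 6 and 1 without PAD2KO 1, and 10 and 2 without PAD2KO 6. DESeq2 called 13 and 2.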

How the results depend on the processing

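No call of a member changed direction under any alternative. Of 751 member differences called neither in the reported fit nor under the alternative, 53 had the other sign there. The calls of Tgfb3 in both genotypes and of Tgfb2, Tgfbr1 and Tgfbr2 in WT, all between batches, passed in every alternative that tested them; the mean count of 30 left Tgfb2 untested. With gene lengths as offsets, genes called fell to 91 (from 313 in the reported fit) for PAD2KO against WT in batch 2, 2 (from 12) in batch 1, 858 (from 1863) for batch 2 against batch 1 in PAD2KO and 1414 (from 2315) in WT, 26 (from 155) for the interaction and 2 (from 17) over both batches. Members called then numbered 0 (from 2) between genotypes of batch 2 and 1 (from 4) between batches in PAD2KO. Without a count filter, 529 genes were called between genotypes in batch 2, 58 in batch 1, 323 for the interaction and 142 over both batches, with 1 member each for the last pair, Tgfbr3 and Snai2. A mean count of at least 30 left 2 members between batches in PAD2KO, with Tgfb2, Smad7 and Pmepa1 untested. DESeq2 called 1 member between genotypes of batch 2, 1216 genes between batches in PAD2KO, 1 member for the interaction and 31 genes over both batches. The 2 groups of batch 1 fitted alone gave 22 genes, and leaving out the batch term gave 4 over both batches. Deviations from group means correlated at 0.0125 to 0.036 in same-numbered PAD2KO and WT libraries, and at -0.0848 to 0.0486 in others. With 2 or 3 libraries in a group, such values cannot decide whether the numbers are pairs. The reported fit did not pair them. The fit with a replicate block called 1 member in batch 2 (Tgfbr3, not Snai2), 102 genes for the interaction and 8 over both batches. Leaving out single libraries gave 61 to 373 genes and 0 to 2 members in batch 2, 3 to 20 genes in batch 1, 1074 to 1999 genes and 2 to 5 members between batches in PAD2KO, 34 to 222 genes and 0 to 1 members for the interaction and 8 to 25 genes over both batches. Depth limits Tgfb1, which had 0 to 10 counts per library, and the 2 libraries of PAD2KO in batch 2 limit every comparison that uses them. The causes of these shifts were not tested.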
